A study of Mus musculus with 15 samples.

Results

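The genes described here are 41 genes of the lysosome and of autophagy, followed across 5 groups of Myc-CaP mouse prostate cancer cells that differ in the form of the transcription factor Twist1 they were given. Members were named by symbol, and each was read from a probe set that carries that symbol alone in the platform annotation. Where a symbol had more than 1 such probe set, the one with the highest mean over all arrays was taken, which applied to 1 gene, Map1lc3b. All 41 were measured, of 19297 genes in all. By role they comprise 10 cathepsins and their inhibitor, 7 membrane and transport proteins, 14 hydrolases and their activators, 2 transcription regulators and 8 autophagy genes.

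Lysosomes are acidic organelles in which cathepsins cut proteins and other hydrolases break down glycogen, glycolipids, glycosaminoglycans and lipids. Autophagy delivers cytoplasmic material to them: a double membrane grows around the cargo, is decorated with lipid-linked proteins of the LC3 and GABARAP families, and fuses with the lysosome. The basic helix-loop-helix factors Tfeb and Tfe3 bind a short DNA element in the promoters of many of these genes, and their activity is set largely by where in the cell they are held. Twist1 is another basic helix-loop-helix factor, best known for driving epithelial-mesenchymal transition, and it binds E-box elements as a dimer.

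The 15 arrays were Affymetrix Mouse Gene 1.0 ST arrays, with 3 replicates (A, B and C) of each group. VEC cells carried an empty vector, WT cells wild-type Twist1, and AQA, DQD and F191G cells the mutant form of that name. F191G lies in the Twist box, a domain near the end of the protein, and the labels do not spell out the AQA and DQD changes. All groups were transfected, selected and harvested at confluence, so every array comes from a dense culture, and the sources used here do not give the promoter driving Twist1. They do not say either whether replicates were separate cultures, and p-values then measure only how far replicate arrays differ, which may be technical.

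Values are log2 intensities, and differences are log2 differences between groups, so that 1 is a doubling. Each comparison comes from one limma model over all 15 arrays with the array batch as a term. In VEC, WT and AQA replicates A and B were in batch A, and in DQD and F191G replicate A alone. Differences were the same with and without the term, such as a member median of -0.36 in DQD against WT. The deposited values thus held no batch difference for the term to fit, and it changed p-values alone. How they came to hold none is not known here. A gene is called at a Benjamini-Hochberg adjusted p under 0.05 over the 19297 genes, and "rose" and "fell" are used of called genes. In a bulk sample fewer cells of a type and less RNA per cell cannot be told apart. Different probe sets answer differently to the same amount of RNA, so levels are compared between groups and not between genes.

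The Twist1 probe set itself separated the groups weakly. Its mean was 6.43 ± 0.29 (SD, n = 3 here and for each mean below) on the VEC arrays and 6.79 ± 0.06 on the WT arrays. The AQA arrays gave 6.68 ± 0.24, the DQD arrays 6.78 ± 0.18 and the F191G arrays 6.75 ± 0.10, with limma adjusted p-values against VEC of 0.129 (WT), 0.438 (AQA), 0.183 (DQD) and 0.429 (F191G). It does not check the labels firmly. WT replicate A stood apart: its correlation with WT replicates B and C over all genes was 0.989 and 0.991, whereas B and C correlated at 0.998, and the lowest correlation within any group without it was 0.996. Of the prostate epithelial markers, Krt8 read 7.35 to 8.89, Krt18 5.58 to 6.04 and Foxa1 10.97 to 11.38 over the arrays. No detection calls were used here, so a low value cannot be called absent.

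Wild-type Twist1 went with higher levels across the lysosome and autophagy genes. Of the 41, 22 rose in WT against VEC and 1, Atg5, fell, by limma. Over all genes 12.8% were called in that comparison, 7.06% higher and 5.72% lower. At an unadjusted p under 0.05 there were 27 members and 27.6% of all genes. The 22 rises ran from 0.32 to 1.06, or 1.24-fold to 2.08-fold. The median difference of the 41 was 0.47, against -0.01 over all genes, and 34 of 41 read higher in WT, against 47.4% of all genes. All 3 WT arrays read above all 3 VEC arrays for 25 members (15.2% of all genes) and below them for 2, Ctss and Atg5 (16.4% of all genes).

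**Figure D1:**
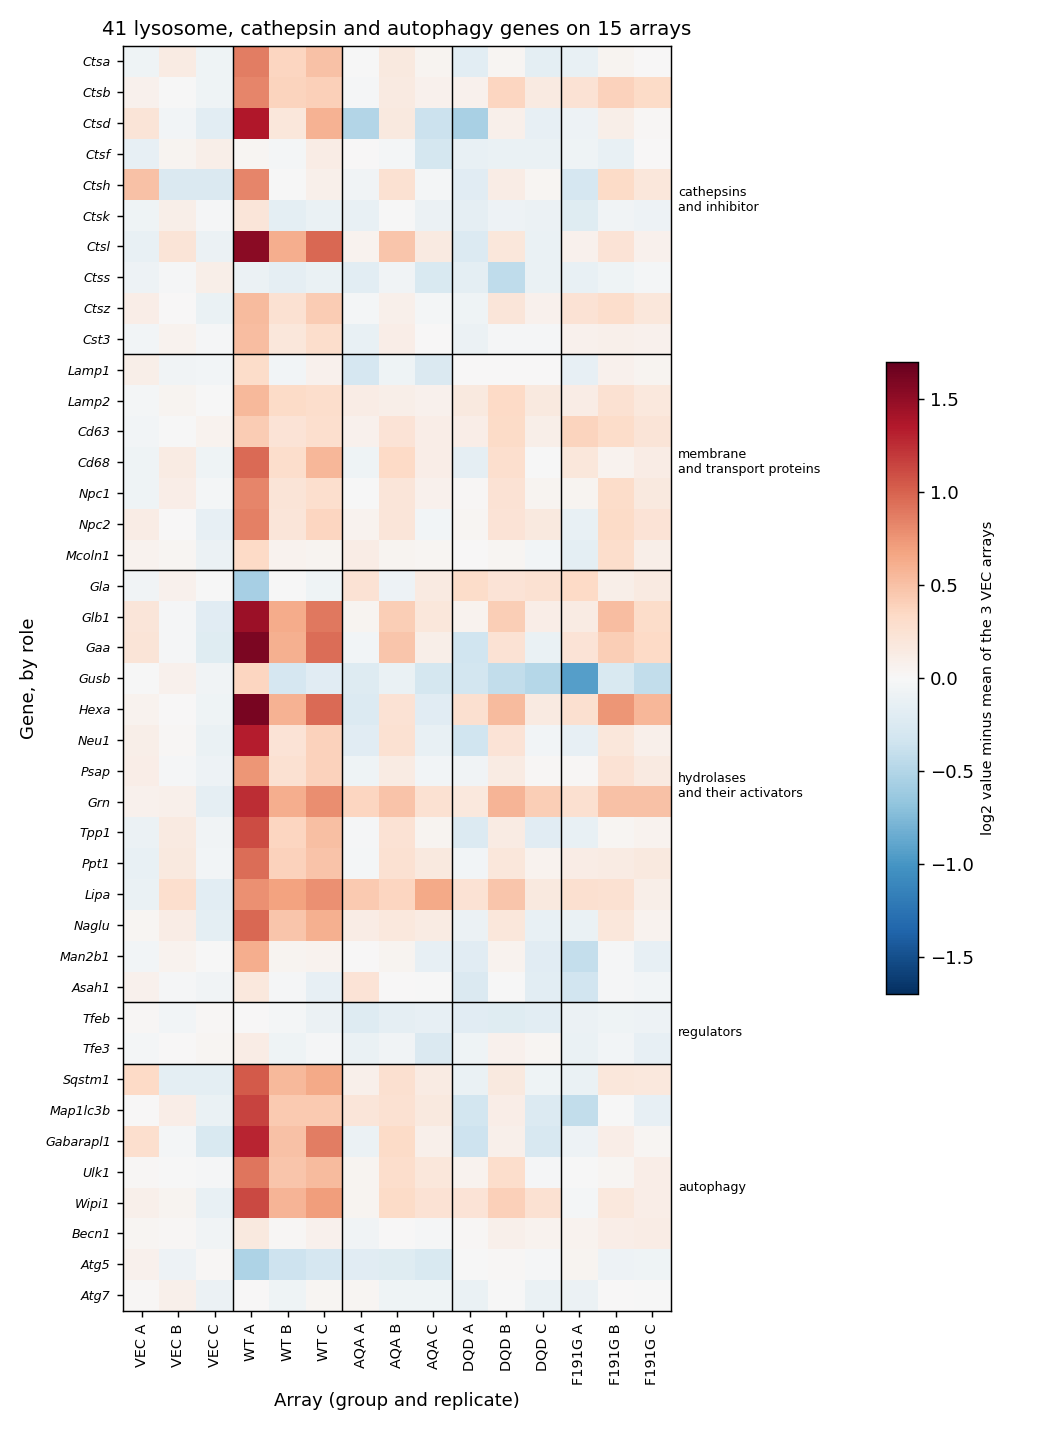
Log2 value minus the VEC mean for the 41 genes (rows, by role) on the 15 arrays (columns, by group). The 3 WT columns hold most of the high values, WT replicate A the highest, while the AQA, DQD and F191G columns lie closer to VEC.

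The rise was not even among the WT arrays. Averaged over the 41 members, the level stood 0.70 above the VEC mean on WT replicate A, 0.23 on replicate B and 0.35 on replicate C. The 12 other arrays lay between -0.08 and 0.15. WT replicate A was the highest of the WT arrays for 37 of 41 members, against 44.8% of all genes. Without it, 16 members were called, 15 higher and 1 lower, where 4.37% of all genes were. All 16 were among the 23: the 7 that lost their call were Ctsz, Cst3, Cd63, Cd68, Psap, Tpp1 and Map1lc3b. Tpp1 and Map1lc3b then differed by 0.43 each. Without VEC replicate C only Wipi1 was called, with 24 members at an unadjusted p under 0.05 and a member median of 0.41, where 128 of all genes (0.663%) were. The counts of 25 and 2 members whose WT and VEC arrays did not overlap became 25 and 4 without WT replicate A (18.1% and 22.6% of all genes), and 25 and 2 without VEC replicate C (17.9% and 18.3%). What sets WT replicate A apart was not tested.

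**Figure D2:**
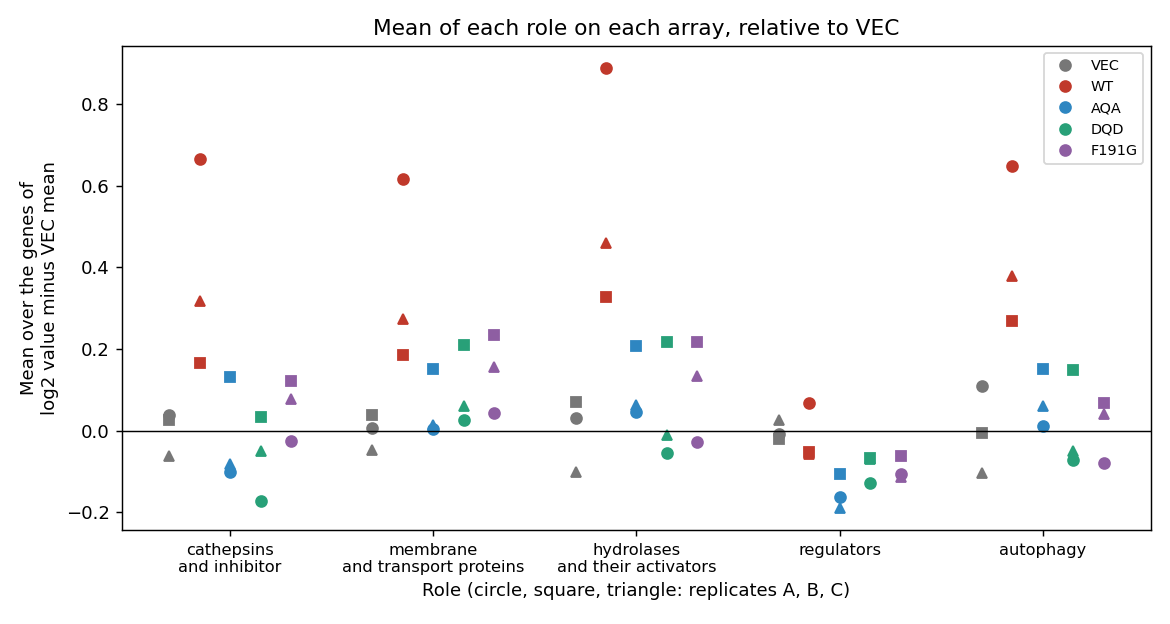
Mean log2 level of each role's genes on every array, relative to the VEC mean. For the cathepsins, membrane proteins, hydrolases and autophagy genes WT replicate A is the highest array and WT replicate C the next, while the mean of Tfeb and Tfe3 stays within 0.19 of VEC.

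The cathepsins are the proteases of the lysosome. Ctsl, encoding cathepsin L, a cysteine protease, read 9.72, 10.08 and 9.76 on the VEC arrays and 11.38, 10.47 and 10.83 on the WT arrays. It read between 9.91 and 10.32 in AQA, 9.61, 10.05 and 9.73 in DQD, and 9.93, 10.08 and 9.93 in F191G. Every WT array was above every array of the other 4 groups. It rose over VEC by 1.04 (SE 0.196, limma adjusted p = 0.00947), and by 0.79 without WT replicate A.

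Ctsa encodes cathepsin A, a carboxypeptidase that also protects beta-galactosidase and neuraminidase in a complex with them. Its VEC arrays read 10.33, 10.54 and 10.33, and its WT arrays 11.28, 10.76 and 10.89, again above all 12 other arrays. It rose by 0.58 (SE 0.118, limma adjusted p = 0.0121). Ctsb, cathepsin B, rose by 0.54 from 10.04 ± 0.07 to 10.58 ± 0.25, and Ctsz, cathepsin Z, by 0.41 from 10.74 ± 0.11 to 11.15 ± 0.14. Cst3, encoding cystatin C, a secreted inhibitor of cysteine cathepsins, rose with the proteases, by 0.34 (SE 0.084) from 11.64 ± 0.05 to 11.98 ± 0.17. Their limma adjusted p-values were 0.0128, 0.0145 and 0.0225.

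The aspartic protease gene Ctsd showed how much the spread within WT can weigh. It read 11.22, 10.96 and 10.81 in VEC and 12.36, 11.19 and 11.59 in WT, so WT replicate B fell inside the VEC range. The difference of 0.72 did not pass (limma adjusted p = 0.0884). The other 4 cathepsins did not pass either: Ctsh differed by 0.30, Ctsf by 0.04, Ctsk by -0.02 and Ctss by -0.12. Ctsk and Ctss, cathepsins best known from osteoclasts and from antigen-presenting cells, read 4.93 ± 0.20 and 5.15 ± 0.03 in WT. In all, 5 of the 10 genes of this role rose and 0 fell by limma, and 6 had an unadjusted p under 0.05.

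**Figure D3:**
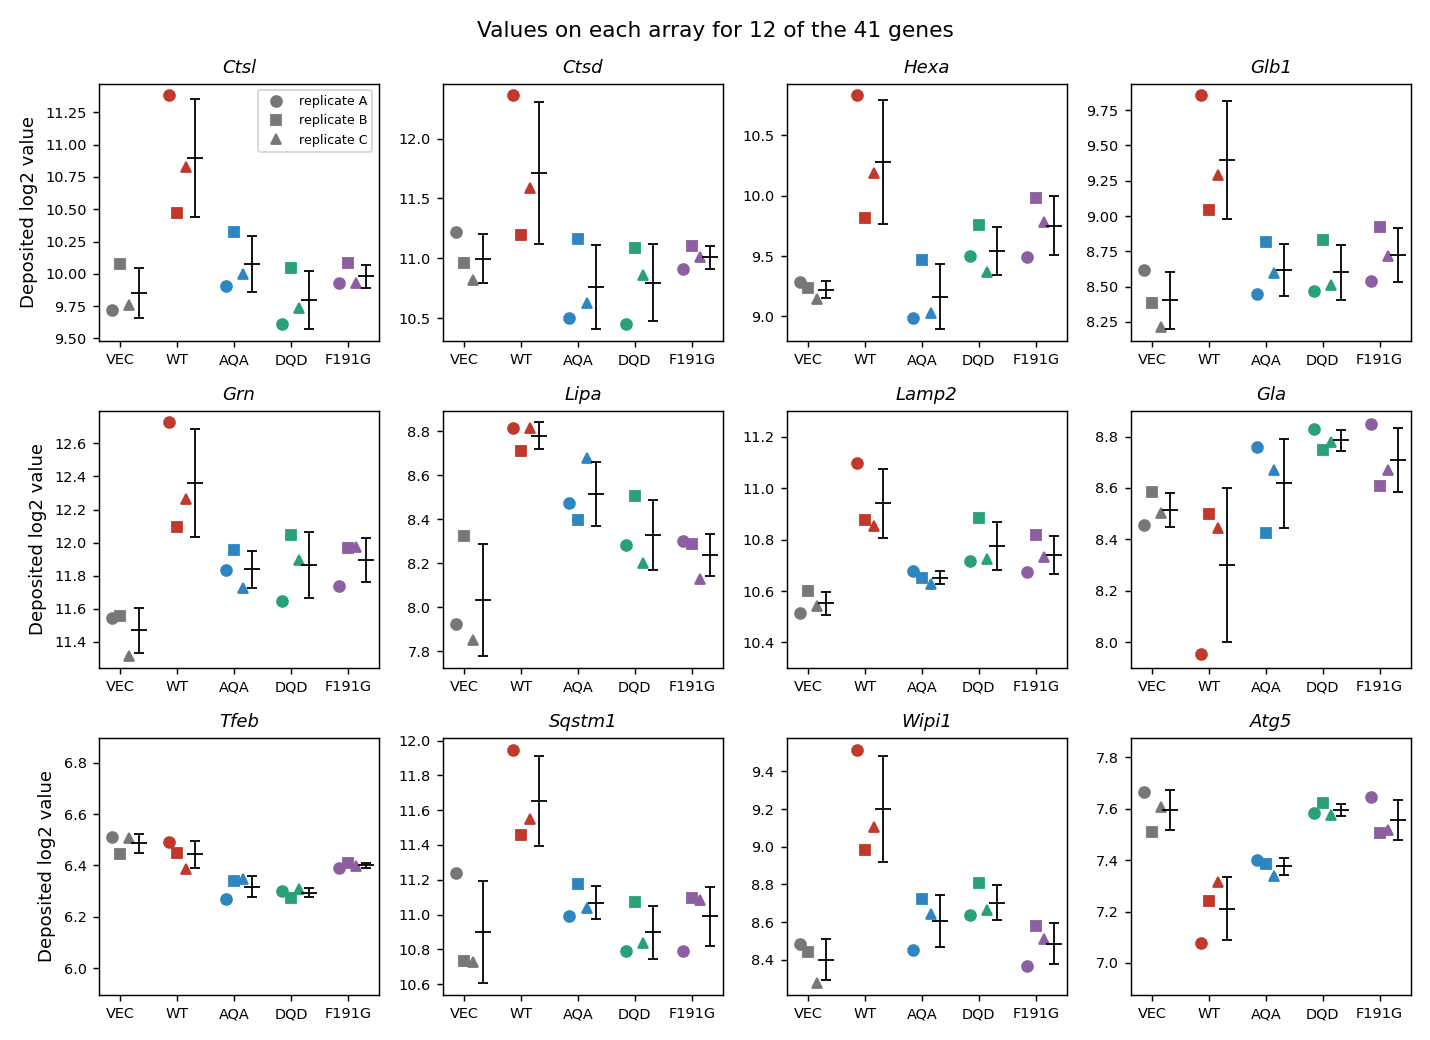
Log2 values of 12 of the genes on every array, with symbols for replicates A, B and C and the group mean ± SD. Ctsl, Glb1, Grn, Lipa, Sqstm1 and Wipi1 have their 3 highest arrays in WT, Atg5 its 3 lowest, and Tfeb shows no WT step over VEC.

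Among the membrane and transport proteins 3 of 7 rose and 0 fell by limma, and 5 had an unadjusted p under 0.05. Lamp2, a main protein of the lysosome's limiting membrane that is also needed for autophagosome fusion, read 10.51, 10.60 and 10.54 in VEC and 11.10, 10.88 and 10.85 in WT. It rose by 0.39 (SE 0.075, limma adjusted p = 0.0100). DQD replicate B, at 10.88, reached the level of the WT arrays. The tetraspanin gene Cd63, a marker of late endosomes, rose by 0.32 (limma adjusted p = 0.0270).

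Cd68 encodes a heavily glycosylated lysosomal membrane protein used as a macrophage marker. It read 6.40, 6.63 and 6.41 in VEC and 7.45, 6.79 and 7.05 in WT, and rose by 0.61 (limma adjusted p = 0.0269). AQA replicate B, at 6.82, lay above WT replicate B. Lamp1, the abundant partner of Lamp2 in the same membrane, differed by 0.11 (95% interval -0.09 to 0.32, limma adjusted p = 0.513). The cholesterol exporters Npc1 and Npc2 differed by 0.44 and 0.48, with every WT array above every VEC array, and missed the threshold (limma adjusted p = 0.0548 and 0.0629). The calcium channel gene Mcoln1 differed by 0.15.

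Since Cd68 and several cathepsins are also highly expressed in macrophages, the levels of macrophage markers stand here beside these rises. Of 22 macrophage and haematopoietic markers 19 were measured, and 0 were called in WT against VEC by limma (3 had an unadjusted p under 0.05). Their summed level ran from 9.62 to 9.70 on the log2 scale over the VEC arrays and from 9.65 to 10.09 over the WT arrays. Over all 15 arrays the defining markers Ptprc, Csf1r and Adgre1 read 4.40 to 4.73, 4.77 to 5.19 and 3.89 to 4.22. Other markers ranged more widely, such as Cd14 at 6.22 to 6.93 and Tyrobp at 5.16 to 5.85, and Cd52 reached 8.35 on WT replicate A. The 9 fibroblast and 6 endothelial markers had 0 called by limma (1 and 0 at an unadjusted p under 0.05), and of 12 measured prostate epithelial markers Krt19 fell by 2.13. Its VEC arrays read 10.28, 7.15 and 8.42, and VEC replicate A was also the highest of the 15 arrays for Krt8 (8.89) and Krt14 (6.81).

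Hydrolases and their activators were the role with the most risen genes: 9 of 14 rose and 0 fell by limma, and 10 had an unadjusted p under 0.05. Hexa encodes the alpha subunit of beta-hexosaminidase, whose loss causes Tay-Sachs disease in humans. It read 9.29, 9.24 and 9.14 in VEC and 10.83, 9.82 and 10.18 in WT. It rose by 1.05 (SE 0.218, limma adjusted p = 0.0124), and by 0.76 without WT replicate A. Its AQA arrays, at 8.99, 9.47 and 9.03, spanned the VEC range, whereas F191G replicate B, at 9.98, reached above the lowest WT array.

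Glb1, encoding beta-galactosidase, read 8.61, 8.38 and 8.21 in VEC and 9.86, 9.04 and 9.29 in WT. The difference was 0.99 (SE 0.189, limma adjusted p = 0.00989), with all WT arrays above the 12 others. Gaa, encoding the acid glucosidase that clears glycogen from lysosomes, rose by 1.06 (SE 0.224, limma adjusted p = 0.0135), from 9.45 ± 0.21 to 10.50 ± 0.50. Without WT replicate A that rise was 0.77, and those of Ctsl (0.79), Gaa and Hexa then lay close together.

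Grn encodes progranulin, a secreted protein that is cleaved in lysosomes and supports their enzymes. It read 11.55, 11.55 and 11.31 in VEC and 12.73, 12.09 and 12.26 in WT, and rose by 0.89 (SE 0.149, limma adjusted p = 0.00677). Lipa, the acid lipase that frees cholesterol from its esters, had the most even WT arrays among these 14 genes, at 8.81, 8.71 and 8.81, against 7.92, 8.32 and 7.85 in VEC. It rose by 0.75 (SE 0.122, limma adjusted p = 0.0059). For both genes all WT arrays lay above the 12 others.

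The remaining risen members of this role act on glycosaminoglycans, peptides, lipid-modified proteins and sphingolipids. Naglu, which cuts heparan sulfate, rose by 0.69, the peptidase gene Tpp1 by 0.66, the palmitoyl thioesterase gene Ppt1 by 0.61, and Psap, the precursor of the saposins that activate sphingolipid hydrolases, by 0.47 (limma adjusted p = 0.00997, 0.024, 0.0144 and 0.0226). Neu1, a neuraminidase gene, read 7.54, 7.47 and 7.33 in VEC and 8.79, 7.68 and 7.84 in WT. Its difference of 0.66 did not pass (limma adjusted p = 0.0907), although the groups did not overlap.

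Others of the role did not move this way. Gla, encoding alpha-galactosidase A, read 8.45, 8.58 and 8.50 in VEC and 7.95, 8.50 and 8.44 in WT, a difference of -0.21 (95% interval -0.49 to 0.07, limma adjusted p = 0.327). Gusb, Asah1 and Man2b1, which act on glucuronides, ceramide and mannosides, differed by -0.04, 0.01 and 0.24.

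Tfeb and Tfe3 transcripts did not step up in WT against VEC. Tfeb read 6.51, 6.44 and 6.51 in VEC and 6.49, 6.45 and 6.39 in WT, a difference of -0.04 (95% interval -0.16 to 0.07, limma adjusted p = 0.673). Tfe3 read 7.97, 8.01 and 8.04 in VEC and 8.13, 7.94 and 7.99 in WT, a difference of 0.02 (95% interval -0.14 to 0.17, limma adjusted p = 0.925). Against WT, 2 of the 2 read lower in AQA and 1 in DQD at an unadjusted limma p under 0.05. Of all genes 25% and 40.8% passed that threshold in either direction. Tfeb lay below all WT arrays in AQA and in DQD (18.3% and 27.9% of all genes). Neither gene was called there, but Tfeb was called in DQD against WT without the batch term and also without the dimmest genes. Transcript levels say nothing of where in the cell these proteins lay. Mitf, a relative of both that belonged to a further list, fell by 0.38 in WT against VEC (limma adjusted p = 0.00733).

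Among the autophagy genes 5 of 8 rose and 1 fell. Wipi1, whose protein binds the lipid that marks growing autophagosome membranes, had the smallest p of the members. Its arrays read 8.48, 8.44 and 8.28 for VEC and 9.52, 8.98 and 9.10 for WT. The mutant forms lay below all WT arrays, at 8.45, 8.72 and 8.64 for AQA, 8.64, 8.81 and 8.66 for DQD, and 8.37, 8.58 and 8.51 for F191G. It rose by 0.80 (SE 0.125, limma adjusted p = 0.00535), with all WT arrays above the 12 others, and stayed called whichever VEC or WT array was left out.

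Sqstm1 encodes p62, the receptor that ties ubiquitinated cargo to the autophagosome. It read 11.24, 10.73 and 10.73 in VEC and 11.95, 11.46 and 11.55 in WT, and rose by 0.75 (SE 0.156, limma adjusted p = 0.0126). Gabarapl1 and Map1lc3b, of the membrane-bound conjugate families, rose by 0.89 and 0.68, and Ulk1, the kinase that starts autophagy, by 0.64 (limma adjusted p = 0.0144, 0.0259 and 0.00746). For all 4 genes the WT arrays lay above all others.

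Atg5, part of the enzyme complex that attaches LC3 to membranes, went the other way. It read 7.67, 7.51 and 7.61 in VEC and 7.08, 7.24 and 7.32 in WT, below all 12 other arrays, which was the case for 1 of 41 members and 5.62% of all genes. It fell by 0.38 (SE 0.071, limma adjusted p = 0.00909). Atg7, whose product acts upstream in the same conjugation, differed by -0.01, and Becn1, of the lipid kinase complex, by 0.09.

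**Figure D4:**
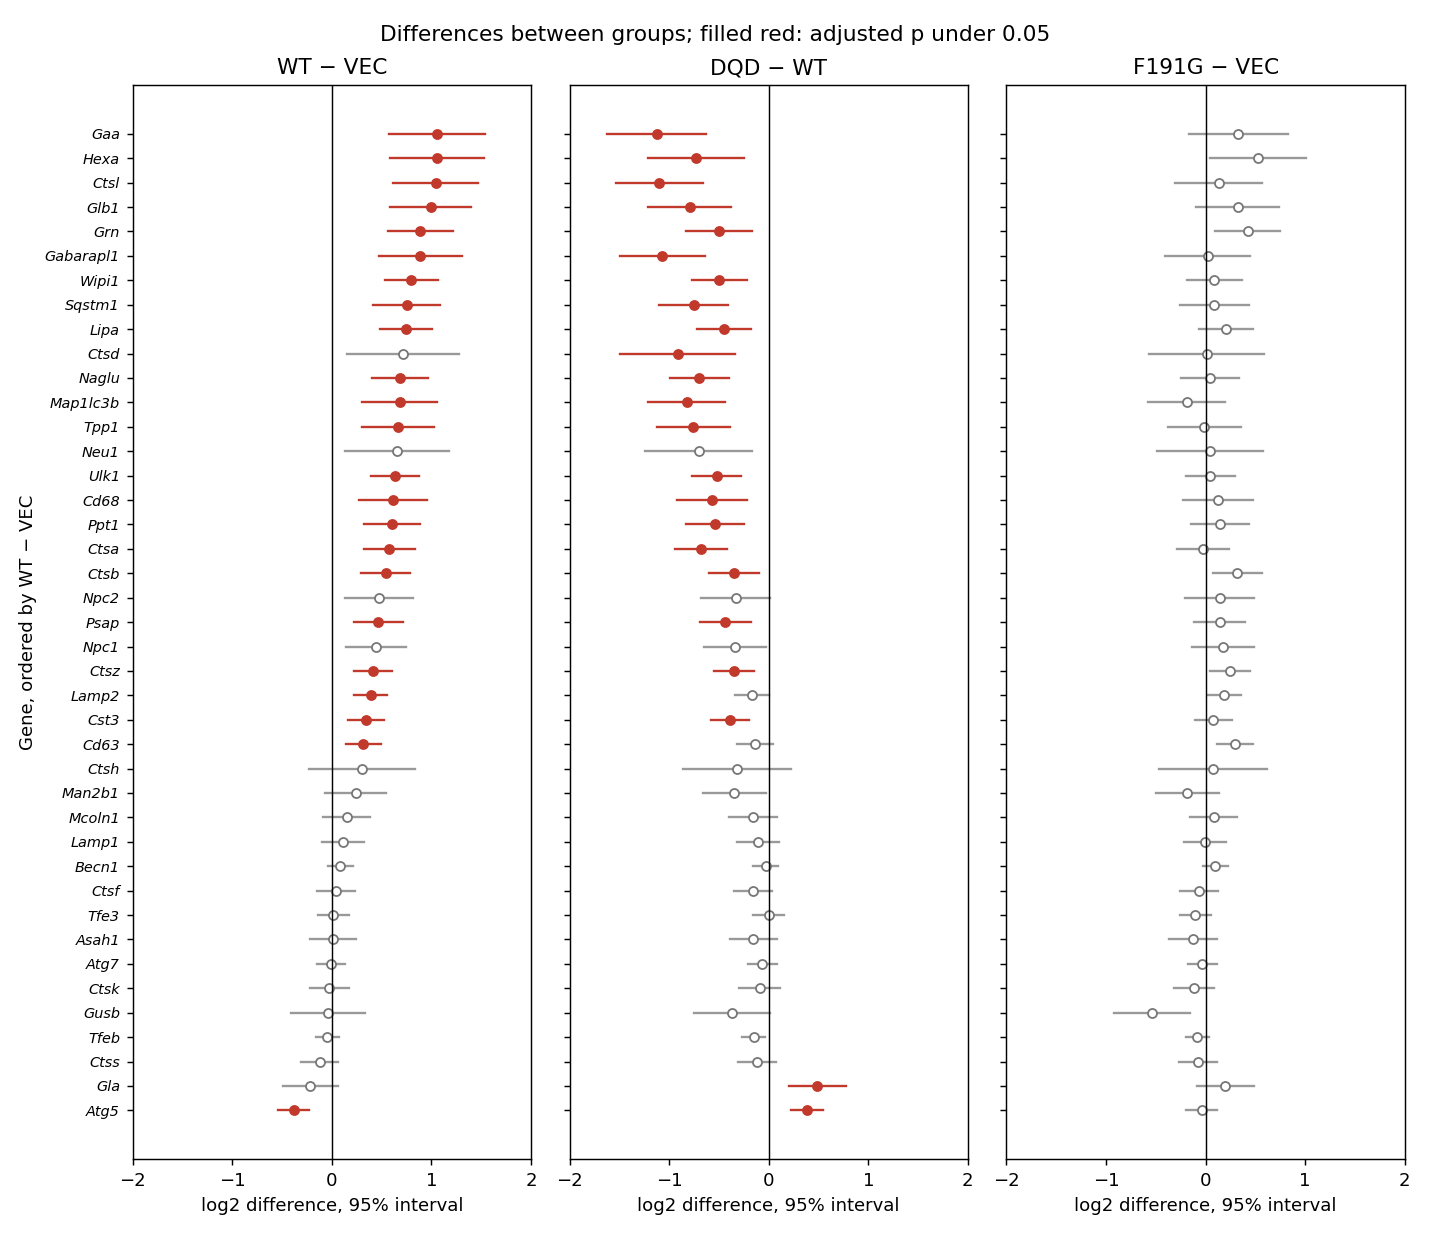
Log2 differences with 95% intervals for the 41 genes in WT minus VEC, DQD minus WT and F191G minus VEC, with called genes filled in red. The WT minus VEC points lie mainly to the right of 0 and the DQD minus WT points mainly to the left, while 0 genes are called in F191G minus VEC.

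Genes of the same pathways outside the 41 were read from a pair of lists, written with earlier results of these data known. Of all genes 12.8% were called in WT against VEC, 7.06% higher and 5.72% lower. Of 48 further lysosome genes measured 18 rose and 1, Mitf, fell in WT against VEC, with a list median of 0.16. The 6 with the smallest p were Ctso, another cathepsin (0.99), Slc17a5, the lysosomal sialic acid exporter (1.06), Mitf, Scarb2, a membrane protein that carries glucocerebrosidase (0.84), Arsb (0.41) and Idua (0.68), both of which degrade glycosaminoglycans. Of 37 further autophagy genes 12 rose and 0 fell by limma (22 at an unadjusted p under 0.05), with a list median of 0.19. These were led by Calcoco1 (1.68), Ulk2 (0.89), Atg2a (0.66), Rb1cc1 (0.64), Nbr1 (0.69) and Atg13 (0.57). Calcoco1 and Nbr1 are cargo receptors, and the others build or start the autophagosome. Without WT replicate A the called genes numbered 12 and 5 (4.37% of all genes), and without VEC replicate C 4 and 2 (0.663% of all genes).

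The promoters were read because Tfeb and Tfe3 are known to bind sequences built around CACGTG, which reads the same on both strands. RefSeq promoter windows of 250 bases before to 50 after the start were found for 36 of the 41 members. A gene was counted if any of its windows held the motif. With 32851 windows for 27025 genes, those with several starts had more chances to match. CACGTG stood in 12 of these 36 (33.3%), against 8.09% of the 27025 genes with a window. The longer GTCACGTG, searched on both strands, stood in 8 (22.2%, against 2.55%), and TCACGTGA in 4 (11.1%, against 1.12%). Both contain CACGTG, so these counts overlap. CATATG, an E-box that Twist1 dimers are known to bind, stood in 4 (11.1%, against 4.48%), of which 1 was among the 21 risen members with a window (4.76%) and 3 among the 15 others (20%).

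CACGTG stood in a window of 5 of the 21 risen members (23.8%) and of 7 of the 15 others (46.7%), a difference that was not tested. The 15 others are the members not called higher in WT. Ctsd is among them, with a match and a difference of 0.72. A match is a run of letters and not a shown binding site. The windows below give 3 risen members with a match (Ctsa, Glb1 and Naglu), Gla, which has 2 matches and did not rise, and Wipi1, which has none and had the smallest p. Each is the 250 bases before the start, 5′ to 3′ in the gene's direction, from RefSeq in build GRCm38.p6, with CACGTG in capitals. For a gene with several windows, the first that held CACGTG there is shown, or the first listed where none did. Ctsa lies at chr2:164833523-164833772 on the plus strand, Glb1 at chr9:114400828-114401077 on the plus strand, Naglu at chr11:101069844-101070093 on the plus strand, Gla at chrX:134601006-134601255 on the minus strand and Wipi1 at chr11:109611390-109611639 on the minus strand.
Ctsa: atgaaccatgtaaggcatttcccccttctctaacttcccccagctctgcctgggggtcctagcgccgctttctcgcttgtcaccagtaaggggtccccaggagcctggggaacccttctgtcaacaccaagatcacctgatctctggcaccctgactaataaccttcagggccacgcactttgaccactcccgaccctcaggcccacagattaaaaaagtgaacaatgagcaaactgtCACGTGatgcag
Glb1: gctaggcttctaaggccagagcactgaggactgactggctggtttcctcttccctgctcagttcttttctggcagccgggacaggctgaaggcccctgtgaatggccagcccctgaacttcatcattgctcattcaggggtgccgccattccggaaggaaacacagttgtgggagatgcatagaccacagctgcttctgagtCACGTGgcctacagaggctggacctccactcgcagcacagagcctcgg
Naglu: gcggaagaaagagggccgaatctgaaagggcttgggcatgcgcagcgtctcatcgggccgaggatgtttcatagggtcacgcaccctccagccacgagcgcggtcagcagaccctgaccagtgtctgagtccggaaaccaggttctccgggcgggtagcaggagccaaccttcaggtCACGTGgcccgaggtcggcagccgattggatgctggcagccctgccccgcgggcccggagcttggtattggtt
Gla: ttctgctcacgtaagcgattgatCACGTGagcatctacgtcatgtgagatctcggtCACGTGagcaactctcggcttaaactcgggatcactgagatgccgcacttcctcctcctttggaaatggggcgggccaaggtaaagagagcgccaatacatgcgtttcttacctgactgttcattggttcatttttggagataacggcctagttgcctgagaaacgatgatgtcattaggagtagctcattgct
Wipi1: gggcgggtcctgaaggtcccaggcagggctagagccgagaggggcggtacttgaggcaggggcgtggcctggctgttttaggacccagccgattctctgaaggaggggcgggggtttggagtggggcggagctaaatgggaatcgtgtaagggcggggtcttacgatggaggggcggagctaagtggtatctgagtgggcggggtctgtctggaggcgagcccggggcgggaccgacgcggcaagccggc

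For the 3 mutant forms 0 members were called against the empty vector by limma, which does not show that they matched it. Lamp2, Cd63 and Grn lay above all VEC arrays in all 3 forms, and Gusb and Tfeb below them. In F191G against VEC 0 of 41 members were called by limma, where 0.0985% of all genes were. At an unadjusted p under 0.05 there were 7 members (11.7% of all genes). The 4 smallest p-values belonged to Cd63 (0.30, limma adjusted p = 0.212), Gusb (-0.54, 0.276), Ctsb (0.32, 0.318) and Grn (0.42, 0.320). Gusb read 8.42, 8.50 and 8.37 in VEC and 7.50, 8.17 and 8.01 in F191G, so the groups did not overlap. Hexa, at 0.53, did not overlap either (limma adjusted p = 0.388). The member median was 0.08, with 10 members above all VEC arrays (7.76% of all genes) and 3 below (13.3%). In F191G 27 of 41 members read higher than VEC, against 40.7% of all genes.

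AQA against VEC also had 0 members called by limma, where 0.881% of all genes were called, and 4 passed an unadjusted p under 0.05 (15.7% of all genes). Lipa came closest, at 8.48, 8.40 and 8.68 in AQA against 7.92, 8.32 and 7.85 in VEC (0.48, limma adjusted p = 0.0839). Tfeb, Atg5 and Grn followed, at -0.17, -0.22 and 0.37 (limma adjusted p = 0.146, 0.162 and 0.257). For Lipa, Tfeb, Atg5 and Grn the AQA and VEC arrays did not overlap, as for 7 members above VEC (9.62% of all genes) and 5 below (16.2%) in all. Lipa was called without the batch term and also without VEC replicate B.

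DQD against VEC had 0 members called by limma, where 0.814% of all genes were called, and 7 passed an unadjusted p under 0.05 (24% of all genes). All 3 DQD arrays lay above VEC for 6 members (12.8% of all genes) and below for 4 (22.1%). Tfeb had the smallest p: its DQD arrays read 6.30, 6.27 and 6.31, all under the VEC arrays, a difference of -0.19 (limma adjusted p = 0.0729). Lamp2, Ctss and Grn differed by 0.22, -0.24 and 0.39 (limma adjusted p = 0.116, 0.132 and 0.151). Tfeb was called without the batch term. The member medians were 0.07 in AQA and -0.002 in DQD. In AQA 26 of 41 members read higher than VEC (38.0% of all genes), and in DQD 19 (39.0%).

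Few genes of the further lists were called in these comparisons: 2 of 48 lysosome genes in AQA and 2 in DQD (4.17% each, beside the 0.881% and 0.814% of all genes), and 0 and 1 of 37 autophagy genes by limma. Ctso rose in AQA (0.65) and in DQD (0.63) against VEC, Mitf fell in AQA by 0.33, and Atp6v1b2, a subunit of the proton pump that acidifies lysosomes, and the cargo receptor gene Tax1bp1 rose in DQD (0.51 and 0.33). In F191G 0 of the 48 and 0 of the 37 genes were called by limma (9 and 3 at an unadjusted p under 0.05).

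Set directly against WT, the mutant forms read lower in most members. These comparisons share the 3 WT arrays with each other and with WT against VEC, so they are not independent of one another or of WT replicate A. In DQD against WT 21 of 41 members fell and 2 rose, where 24.5% of all genes were called, 12.8% lower and 11.8% higher, by limma. At an unadjusted p under 0.05 there were 27 members and 40.8% of all genes. With each array centred on its median, the all-gene median moved by 0.11, 3885 of the 4811 called genes were higher, and 14 members fell and 2 rose. The member median was -0.36 before centring and -0.25 after it.

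The falls in DQD covered every role but the regulators. Ctsa, with DQD arrays at 10.23, 10.43 and 10.23, fell by 0.68 (limma adjusted p = 0.0094), and the other cathepsin genes that fell were Ctsl (-1.10), Ctsd (-0.91), Ctsb (-0.35) and Ctsz (-0.35), with the inhibitor gene Cst3 (-0.39). Of the membrane proteins Cd68 fell (-0.57). Among the hydrolases and activators Gaa fell by the largest difference (-1.13, from 10.50 ± 0.50 in WT to 9.38 ± 0.30 in DQD), followed by Glb1 (-0.79), Tpp1 (-0.76), Hexa (-0.73), Naglu (-0.70), Ppt1 (-0.54), Grn (-0.50), Lipa (-0.45) and Psap (-0.43). The autophagy genes Gabarapl1 (-1.07), Map1lc3b (-0.83), Sqstm1 (-0.75), Ulk1 (-0.52) and Wipi1 (-0.50) fell too. Their limma adjusted p-values ran from 0.0094 to 0.045. Without WT replicate A the differences of Ctsb, Ctsd, Hexa and Grn were -0.21, -0.61, -0.47 and -0.33, and these 4 were no longer called. Ctsz, Cd68, Psap and Lipa then lost their call too, making 8 members in all.

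The 2 that rose were Atg5 and Gla. Atg5 read 7.58, 7.62 and 7.58 in DQD, a rise of 0.38 over WT (limma adjusted p = 0.0105). Gla read 8.83, 8.75 and 8.78 in DQD, above all VEC and all WT arrays, a rise of 0.49 over WT (limma adjusted p = 0.0237) that was 0.32 without WT replicate A. The count of 23 dropped to 0 by limma without DQD replicate A (21 at an unadjusted p under 0.05), the only DQD array of batch A, and to 15 without WT replicate A, where 0 and 2118 of all genes were called.

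Some markers of other cells were called lower in this comparison, where 12.8% of all genes were. Of the 19 macrophage and haematopoietic markers 3 fell in DQD against WT (Csf1r, Cd3e and Coro1a, by 0.25 to 0.26), of the 9 fibroblast markers 4 (Thy1, Pdgfrb, Postn and Col1a1) of the 6 endothelial markers 1 (Kdr) and of the 12 prostate epithelial markers 1 (Cdh1, by 0.27). The summed macrophage level ran from 9.54 to 9.67 over the DQD arrays and from 9.65 to 10.09 over the WT arrays. Their part in the members' falls was not tested. Of the further lists 17 lysosome genes fell and 3 rose, and 11 autophagy genes fell and 0 rose by limma, among them Slc17a5 (-0.95), Smpd1 (-1.04) and Calcoco1 (-1.46), while Mitf rose (0.46). With each array centred on its median the lysosome genes had 9 lower and 5 higher and the autophagy genes 7 lower and 5 higher, and without DQD replicate A both had 0 called by limma (16 and 14 with an unadjusted p under 0.05).

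In F191G against WT 11 members were called by limma, 10 lower and 1 higher, where 7.13% of all genes were, 3.95% lower and 3.18% higher. At an unadjusted p under 0.05 there were 25 members and 27.7% of all genes. With each array centred on its median 1141 of 1601 called genes were higher, and the members still had 10 lower and 1 higher. Wipi1 led, at 8.37, 8.58 and 8.51 in F191G (-0.71, limma adjusted p = 0.0207). The other falls were in Gabarapl1 (-0.87), Map1lc3b (-0.87), Sqstm1 (-0.66) and Ulk1 (-0.59) of the autophagy genes, Ctsl (-0.91) and Ctsa (-0.60) of the cathepsins, and Tpp1 (-0.68), Naglu (-0.64) and Lipa (-0.54) of the hydrolases. Atg5, at 7.65, 7.51 and 7.52, rose by 0.34 (limma adjusted p = 0.0313). By role, 6 of 8 autophagy genes, 2 of 10 cathepsin genes, 3 of 14 hydrolase genes and 0 of 7 membrane proteins were called by limma, the last with 2 at an unadjusted p under 0.05.

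That count rested on single arrays. It was 0 by limma without F191G replicate A or C (with 16 and 24 members whose unadjusted p was under 0.05), where 0% and 0.549% of all genes were called. The count was 3 without F191G replicate B (1.17% of all genes), 4 without WT replicate A (0.777%) and 24 without WT replicate B (15.3%). The count over all genes moved too, though not in step. Ctsa, Map1lc3b, Ulk1 and Wipi1 were the 4 called without WT replicate A. Of the further lists 6 lysosome genes, led by Slc17a5 (-0.86), and 7 autophagy genes, led by Calcoco1 (-1.47), fell, and 0 rose by limma in either (1 in each at an unadjusted p under 0.05).

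AQA against WT had the fewest calls against WT. Hexa fell by 1.11 (limma adjusted p = 0.0455) and Wipi1 by 0.60 (limma adjusted p = 0.0498), where 0.726% of all genes were called, 0.42% lower. Next came Ctsz and Ctsa, at -0.41 and -0.51 (limma adjusted p = 0.0531 and 0.0548). The member median was -0.40, beside -0.36 in DQD and -0.33 in F191G. In AQA 31 members had an unadjusted p under 0.05 (25% of all genes), and for 26 all AQA arrays lay below all WT arrays (18.3% of all genes). The same was so for 26 members in DQD (27.9% of all genes) and for 21 in F191G (19.4% of all genes). Arrays lay above all WT arrays for 1 member in AQA (11.7% of all genes), 2 in DQD (20.2%) and 2 in F191G (15%). The count of 2 became 15 without AQA replicate B (6.58% of all genes), 23 without WT replicate B (12.5%), and 0 by limma without WT replicate A or C or AQA replicate A or C (21 to 29 members with an unadjusted p under 0.05). Atp6v1b2, Scarb2 and Arsb were the further lysosome genes called, all lower.

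**Figure D5:**
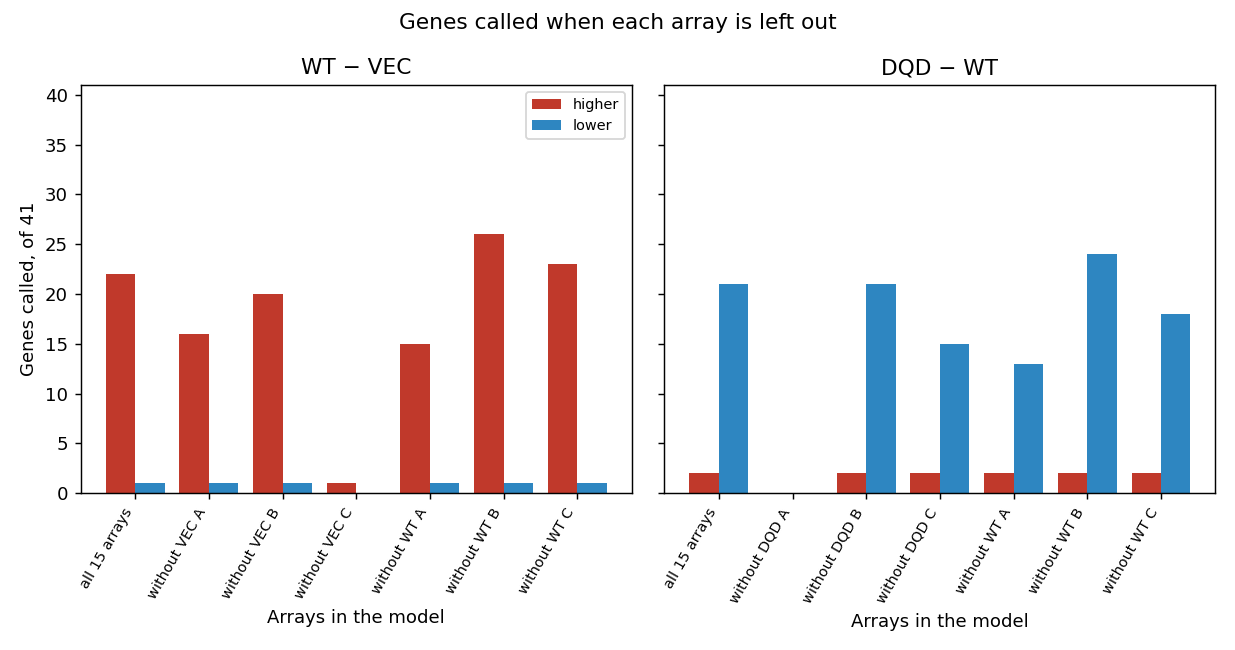
Members called higher and lower in WT minus VEC and in DQD minus WT with all arrays and with each array left out in turn. The bars of WT minus VEC shrink to 1 gene without VEC replicate C and those of DQD minus WT to 0 without DQD replicate A.

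DQD and AQA did not differ detectably in these genes. In total 0 of 41 members were called by limma in DQD against AQA, where 0.0259% of all genes were called, and 1 had an unadjusted p under 0.05 (14.6% of all genes). The groups did not overlap for 4 members higher in DQD (13.3% of all genes) and 4 lower (13.9%). The smallest p-values were those of Atg5, at 7.58, 7.62 and 7.58 in DQD and 7.40, 7.39 and 7.34 in AQA (0.22, 95% interval 0.06 to 0.38, limma adjusted p = 0.213), Lamp1 (0.21, 0.349), Tfe3 (0.15, 0.355) and Asah1 (-0.22, 0.380). A p that misses the threshold does not show that the forms act alike. Atp6v1b2 of the further list was higher in DQD by 0.63 (limma adjusted p = 0.0179).

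Over the 5 groups together the moderated F-test of limma called 20 of 41 members, where 10.1% of all genes were called, with the smallest adjusted p for Wipi1 (0.0220). WT had the highest group mean for 32 of the 41. The lowest mean was spread more widely: 16 members had it in DQD, 14 in VEC, 5 in AQA, 4 in F191G and 2 in WT. For 16 members all 3 WT arrays lay above the 12 others, against 5.13% of all genes, and that count was also 16 without WT replicate A, against 5.92%.

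Inside WT, AQA, DQD and F191G, though not VEC, 1 array was the highest for most members. In DQD replicate B was the highest of the 3 arrays for 36 of 41 members (35.7% of all genes), in AQA replicate B for 32 (42.2%) and in F191G replicate B for 29 (33.3%). In VEC the highest array was replicate A for 20 members, B for 17 and C for 4 (31.0%, 35.1% and 33.9% of all genes). The median SD of a member over the 3 WT arrays was 0.27, against 0.097 over all genes. The median Pearson correlation between 2 members was 0.60 over the 15 arrays and 0.29 over the 12 arrays without WT, for 820 pairs that share the same arrays. These correlations are descriptions of the 15 arrays, with no value for all gene pairs beside them, and the genes are not independent of each other.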

How the data were processed

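Gene expression was measured on 15 arrays, 3 in each of 5 groups, named by the samples' labels. The deposited values are log2 intensities of 23811 probe sets, made with RMA and examined with limma per the submitters' processing notes, with versions not given in the sources used here. Its design text also names a Twist1-based normalization of unstated form, and whether it touched the deposited values is unknown. Probe sets with 1 symbol in the platform annotation (20852, against 1440 with several and 1519 not listed) gave 19297 genes, each by its probe set with the highest mean. No dim gene was removed. Array medians ran from 6.31 to 6.42, and precision is limited by the number of arrays.

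Models with group and array batch (8 arrays in A, 7 in B) were fitted in R 4.3.3 with limma 3.58.1 over all arrays (9 residual and 3.93 prior degrees of freedom), for 8 comparisons and an F-test over the groups, and were tested on simulated data. The members and lists were chosen with earlier results of these data known. Every called member is named, or the 4 with the smallest p where fewer than 4 were called, and of each further list at most 6 called genes by p. Motifs were counted with Python 3.11.15 and figures drawn with matplotlib 3.10.9. Alternatives changed the batch term, replicate block, arrays fitted, centring, Twist1 covariate, dim genes, probe sets, variance model and single arrays. The further lists' counts and the non-overlap counts without single arrays were added after the data were seen.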

Additional observations from a re-analysis of the deposited data

Results flagged for a closer look

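Map1lc3b, which encodes an LC3 protein of the autophagosome membrane, has a second probe set that the comparisons above did not use. It also read higher in WT than in VEC: by 0.71 on the log2 scale (limma adjusted p = 0.0241), from a mean of 9.63 to 10.34, beside 0.68 for the probe set in use.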

How the results depend on the processing

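Of 1247 single-member values over the alternatives 895 kept their direction and their side of the threshold, 341 lost their call, 11 gained one and 0 reversed. Counts of called members moved by over 1.5 times as follows (by limma; counts of 0 in comparisons with WT or the F-test had 8 to 29 members at an unadjusted p under 0.05). Without the batch term, which left the differences unchanged, they were 1 for AQA minus VEC, 1 for DQD minus VEC, 18 for F191G minus WT and 19 for AQA minus WT. With the replicate block they were 7 for F191G minus WT, 0 for AQA minus WT and 1 for the F-test, while WT minus VEC kept 23. Deviations from the group mean correlated over 0.1 in 6 of 30 same-letter pairs of arrays and in 23 of 60 different-letter pairs. Batch splits the letters differently between groups, and the deposited values held no batch difference for the model to fit, which shapes these deviations. They therefore cannot tell whether the letters pair samples. With only the arrays compared, WT minus VEC, F191G minus WT, AQA minus WT and DQD minus WT each had 0. With Twist1 as a covariate WT minus VEC, AQA minus WT and the F-test had 0. AQA minus WT had 0 with median centring, 15 without the dimmest genes and 1 with a variance trend. Batch A alone gave 0 for WT minus VEC, for each form minus WT and for the F-test, and batch B alone 4 for WT minus VEC, 2 for DQD minus WT and 0 for F191G minus WT, AQA minus WT and the F-test. In WT minus VEC the members at an unadjusted p under 0.05 then numbered 21 and 26, and the member median was 0.47 and 0.49. Leaving out single arrays gave 1 to 27 for WT minus VEC, 0 to 26 for DQD minus WT, 0 to 24 for F191G minus WT, 0 to 23 for AQA minus WT, 0 to 1 for AQA minus VEC and 1 to 23 for the F-test. The member median of WT minus VEC stayed between 0.31 and 0.58 over 16 alternatives. The cause of these changes was not tested.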
